A study of Penicillium oxalicum with 6 samples.

Results

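In mycelium of Penicillium oxalicum lacking PoxTMA7, 201 abundant genes kept between 50.0% and 80.0% of their wild-type RNA level. They were chosen from the 9137 gene identifiers listed in any library, by 3 conditions on FPKM (a read level that takes account of gene length and sequencing depth). The mean over all 6 libraries had to be at least 41 FPKM and under an upper limit that left out the 102 most abundant genes, the ratio of the mutant mean to the wild-type mean had to be above 0.5 and at most 0.8, and the highest mutant value had to lie below the lowest wild-type value. The level and the fall of these genes are therefore what selected them, and the values below describe them without a test. The deposited identifiers carry no gene names or products and none of them matched the 9964 genes of the reference table, so no function is given for any gene. The deleted gene could not be tied to an identifier, so the genotype was not checked on it.

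The libraries were 3 from the mutant, in which PoxTMA7 was knocked out in the wild-type background (ΔPoxTMA7), and 3 from the wild type (WT). The series title names the strain HP7-1. Both groups were mycelium grown for 24 h on 1% Avicel after a glucose pre-culture of 24 h from spores harvested after 4 days at 28 °C; the treatment protocol names raw starch where the treatment label and design text name Avicel, a disagreement that was not resolved. The recovered totals were 13269238 to 20808413 reads in ΔPoxTMA7 and 11665908 to 16508834 reads in WT. ΔPoxTMA7 replicate 1 stood apart from the other mutant libraries: it differed at least 2-fold from replicates 2 and 3 in 155 and 197 of the 6743 tested genes, whereas replicates 2 and 3 differed so from each other in 28. Results are therefore also given without it. The labels do not say whether the libraries of a group were separate cultures or whether the mutant was more than 1 clone, so the spread between libraries may be technical.

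P. oxalicum is a soil mould that secretes cellulases and xylanases, and Avicel is a microcrystalline cellulose that the fungus must break down outside the cell before it can take up the sugar. Tma7, known from budding yeast, is a small protein found together with ribosomes, and its name stands for translation machinery associated. The study asked how its P. oxalicum counterpart bears on cellulase and xylanase production. RNA was measured in bulk mycelium, where fewer cells expressing a gene and less RNA per cell cannot be told apart.

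The fall was of moderate size and the genes were spread over the permitted range. The median gene kept 67.1% of its WT mean, and the quartiles were 58.3% and 72.8%. Between 0.5 and 0.6 of the WT mean there were 55 genes, between 0.6 and 0.7 there were 70, and between 0.7 and 0.8 there were 76. Mean levels ran from 29.6 to 271.7 FPKM in ΔPoxTMA7 (median 57.2) and from 46.2 to 349.6 FPKM in WT (median 89.1). Ranked by their mean over all libraries, the genes lay between places 105 and 998 of the 9137, so they sit below the most abundant transcripts and above the bulk of the genome. Within the set the median gene kept 68.9% of WT among the 75 genes of 41 to 60 FPKM. It kept 62.9% among the 58 of 60 to 100 FPKM and 67.7% among the 68 of at least 100 FPKM. The ratio limits left out deeper and smaller falls at every level. These medians therefore cannot show whether the depth of a fall follows abundance.

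**Figure D1:**
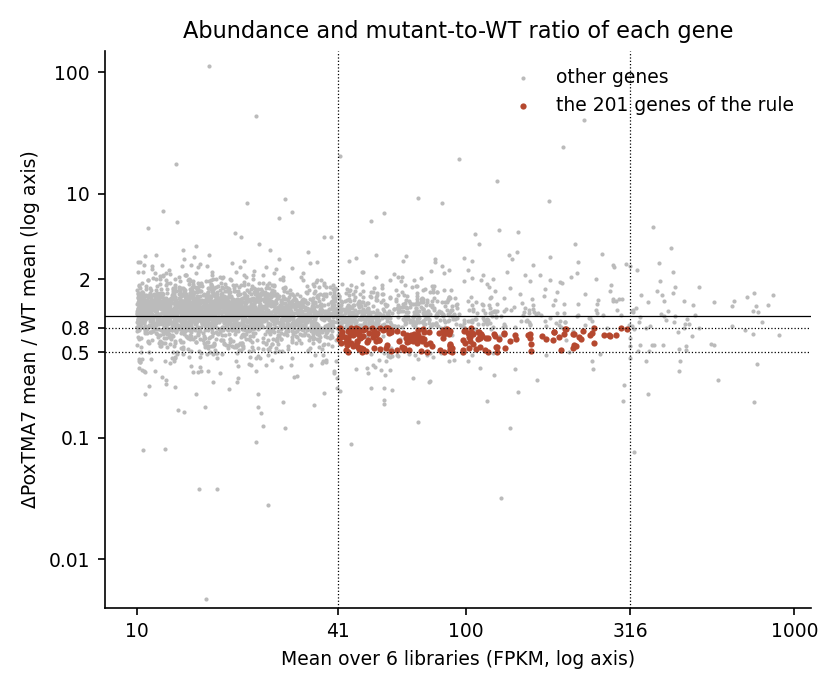
Each point is a gene with a mean of 10 to 1000 FPKM over 6 libraries (x axis, log scale), placed by the ratio of its ΔPoxTMA7 mean to its WT mean (y axis, log scale). The 201 genes (red) fill the box between the dotted abundance limits (vertical) and ratio limits of 0.5 and 0.8 (horizontal), apart from genes in it whose groups overlapped, and have means of 41.2 to 310.7 FPKM.

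Within the abundance range of the set there were 902 genes, and the 201 made up 22.3% of them. Deeper falls, to at most 0.5 of WT without overlap, were seen in 57 genes of this range, and 94 genes lay wholly below WT but kept more than 0.8. Another 22 genes were within the ratio limits but had a mutant value at or above the lowest WT value. The mirror image of the set, genes with a ratio from the inverse of 0.8 to under 2 and all mutant values above WT, held 115 genes. In this range of abundance 39.0% of genes lay wholly below WT and 25.2% wholly above, whereas over all 6743 genes with at least 1 FPKM in 3 libraries 21.6% lay wholly below and 38.6% wholly above. These counts moved when libraries were rescaled by their median ratio, so that the typical gene shows no change, which gave 450 genes wholly below and 161 wholly above in place of 352 and 227.

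Added together, these genes held a smaller part of the transcript pool in the mutant. The 201 genes held 6.98%, 5.96% and 5.92% of the FPKM sum in ΔPoxTMA7 replicates 1, 2 and 3, against 9.51%, 9.46% and 9.65% in the WT libraries. Every mutant library lay below every WT library, which the choice of genes fixes. The means were 6.28 ± 0.602% in ΔPoxTMA7 and 9.54 ± 0.0991% in WT (SD, n = 3 each), a difference of -3.26 percentage points. The 57 genes with deeper falls held less of the pool in both groups, 1.18 ± 0.261% in ΔPoxTMA7 and 3.38 ± 0.103% in WT, a difference of -2.20 percentage points. The more numerous moderate falls thus made up the larger part of the sum. On the other side, the 115 mirror genes held 4.94 ± 0.428% in ΔPoxTMA7 and 3.25 ± 0.0319% in WT, and the 49 genes at least 2 times the WT mean held 3.53 ± 0.488% and 1.07 ± 0.0221%. All genes of the abundance range together held 32.8 ± 0.869% in ΔPoxTMA7 and 33.6 ± 0.312% in WT. Shares of a sum are not independent of each other, and the classes were cut on the same values.

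**Figure D2:**
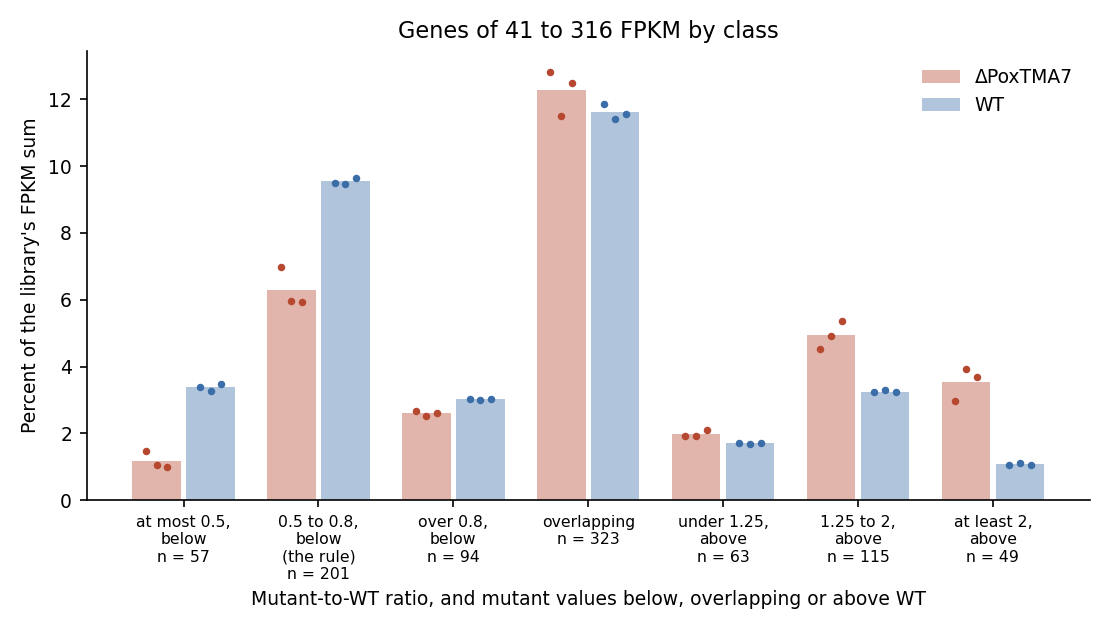
Percent of each library's FPKM sum held by the 902 genes of the abundance range, split by mutant-to-WT ratio and by whether all mutant values lay below WT, overlapped with WT or lay above WT; bars are means of 3 libraries and points are libraries. The 201 genes hold 6.28% in ΔPoxTMA7 and 9.54% in WT, the widest gap in percentage points among the 7 classes.

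The genes with the lowest ratios, which sit at the edge of the set, fell to about 50% of WT. POX_2g02170 had 84.9, 51.5 and 35.3 FPKM in ΔPoxTMA7 replicates 1 to 3, against 104.9, 125.5 and 112.8 FPKM in WT replicates 1 to 3. Its groups did not overlap, but its mutant libraries lay far apart, and its mean was 57.2 ± 25.3 FPKM in ΔPoxTMA7 and 114.4 ± 10.4 FPKM in WT (SD, n = 3 each). POX_1g00509 had 39.5, 29.9 and 27.5 FPKM in ΔPoxTMA7 and 63.0, 66.6 and 64.2 FPKM in WT, with replicate 1 again the highest mutant library. POX_7g09346 had 71.0, 68.8 and 57.1 FPKM in ΔPoxTMA7 and 130.9, 126.3 and 133.9 FPKM in WT. This gene had the clearest separation of the set, its lowest WT value being 1.78 times its highest mutant value. POX_6g08216 was next, at 67.8, 59.6 and 55.7 FPKM in ΔPoxTMA7 and 117.0, 125.1 and 121.0 FPKM in WT.

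The genes that complete the 4 widest separations differed in which group was the more uniform. POX_4g06297 had 70.6, 57.7 and 53.9 FPKM in ΔPoxTMA7 and 118.8, 120.1 and 117.9 FPKM in WT, a WT spread of 1.08 FPKM (SD). POX_1g01745 had 80.9, 75.9 and 80.0 FPKM in ΔPoxTMA7 and 157.6, 134.4 and 159.2 FPKM in WT. Here the mutant libraries were the uniform ones and the WT replicate 2 stood lower than the others. Over the whole set the lowest WT value exceeded the highest mutant value by a median factor of 1.246, by at least 1.1 in 172 genes and by at least 1.5 in 18.

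The 4 most abundant genes kept between 67.6% and 79.3% of their WT means. POX_2g02573 had 277.0, 267.4 and 270.8 FPKM in ΔPoxTMA7, against 322.5, 360.4 and 365.9 FPKM in WT. POX_1g00229 had 284.9, 242.9 and 261.4 FPKM in ΔPoxTMA7 and 326.2, 343.7 and 324.7 FPKM in WT. They kept 77.7% and 79.3% of WT, close to the upper limit of the set. POX_4g06247 had 231.2, 246.4 and 223.8 FPKM in ΔPoxTMA7 and 313.9, 342.1 and 359.0 FPKM in WT. POX_3g04809 had 231.7, 212.7 and 221.6 FPKM in ΔPoxTMA7 and 324.0, 328.0 and 332.7 FPKM in WT. Replicate 1 was the highest mutant library in 3 of these genes, and replicate 2 was the highest in POX_4g06247.

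**Figure D3:**
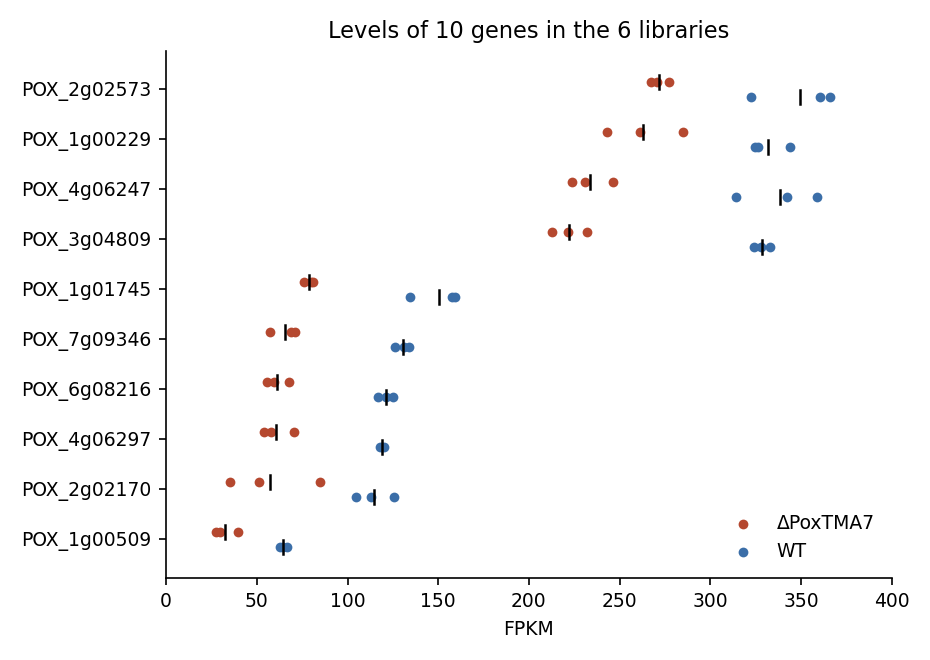
FPKM of the 10 genes with the lowest ratios, the widest separations or the highest means (points, 3 ΔPoxTMA7 libraries above 3 WT libraries for each gene; black ticks, means). The mutant points of POX_2g02170 spread from 35.3 to 84.9 FPKM, whereas those of POX_1g01745 lie between 75.9 and 80.9 FPKM.

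Counting error was small beside these falls. Reads recovered from the FPKM steps gave 1188 to 28083 reads per gene and library for the set, with a median of 4415. The square-root counting error was then at most 2.90% of a value, with a median of 1.505%. The spread between libraries was larger: the median coefficient of variation was 12.0% in ΔPoxTMA7 and 4.95% in WT. On the log2 scale the median SD was 0.17 in ΔPoxTMA7 and 0.070 in WT, against 0.16 and 0.069 in the other 701 genes of the abundance range, which were also more variable in the mutant.

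The 3 mutant libraries were not equally low. The conditions treat these libraries alike, so they set no order among them. They do act through the highest mutant value and the mutant mean. A gene whose replicate 1 lay far above the others could therefore pass or fail because of it. The shares given here for replicate 1 are thus not free of the choice of genes. The median gene stood at 73.0% of its WT mean in ΔPoxTMA7 replicate 1, at 64.3% in replicate 2 and at 62.2% in replicate 3. Replicate 1 was the highest of the 3 in 158 of the 201 genes (78.6%), replicate 2 in 22 and replicate 3 in 21. Among the other genes of the abundance range replicate 1 was the highest in 33.5%, and over all tested genes in 33.3%; these pools hold genes that moved either way. Among the 57 genes of the range with deeper falls replicate 1 was the highest in 78.9%, close to the share in the set, and among the 94 with smaller falls in 47.9%. In the mirror class, whose genes were higher in the mutant, replicate 1 was the lowest of the 3 in 70.4% of genes. So in both directions replicate 1 was mostly the mutant library nearest to WT. Replicate 3 was most often the lowest under both scalings, in 109 genes as deposited and in 172 after median-ratio scaling, so how often depended on the scaling. Replicate 1 was the highest in 154 genes after median-ratio scaling.

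**Figure D4:**
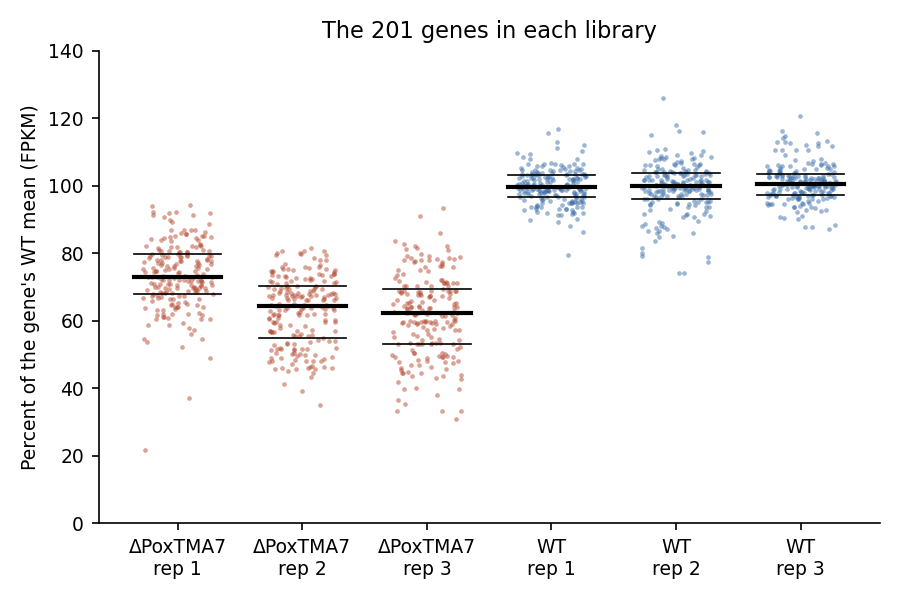
Level of each of the 201 genes (points) in each library as a percent of the gene's WT mean, with the median (thick line) and quartiles (thin lines). Medians are 73.0%, 64.3% and 62.2% in ΔPoxTMA7 replicates 1 to 3 and 99.7%, 99.9% and 100.5% in WT replicates 1 to 3.

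In replicate 1 the median gene showed 66.4% of the log2 fall seen in replicates 2 and 3, with quartiles of 51.4% and 83.1%. The median was 66.5% in the 57 genes with deeper falls and 78.9% in the 94 with smaller falls. In pools of genes that moved either way the measure is a share of a change, unstable where the change is near 0. It was 63.1% over all tested genes, 56.7% in the other genes of the range and -0.50% in the 323 overlapping genes. At one end of the set were 13 genes in which replicate 1 was at least 1.5 times the higher of replicates 2 and 3. The most extreme, chosen after the values were seen, was POX_4g06382, at 49.2, 20.5 and 19.3 FPKM in ΔPoxTMA7 and 56.7, 67.0 and 51.1 FPKM in WT. Its replicate 1 came within a few percent of the lowest WT value. POX_5g07762, chosen in the same way, had 75.9, 33.1 and 28.0 FPKM in ΔPoxTMA7 and 77.8, 91.6 and 83.9 FPKM in WT. For both genes the fall was far deeper in replicates 2 and 3 than the group mean shows.

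At the other end were 24 genes whose mutant libraries lay within a factor of 1.1 of each other. POX_2g02589 was among them, with 58.7, 57.7 and 59.4 FPKM in ΔPoxTMA7, against 84.7, 83.0 and 85.6 FPKM in WT, a fall to 69.4% repeated almost exactly in every library. POX_1g00993 had 36.4, 37.0 and 36.6 FPKM in ΔPoxTMA7 and 47.9, 45.7 and 45.1 FPKM in WT. These examples too were chosen after their values were seen. In the 24 genes replicate 1 did not stand apart, which the limit of 1.1 fixes.

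A few genes ran the opposite way. In 16 genes replicate 1 was the lowest of the 3. POX_1g00282, chosen after its values were seen, had 45.2 FPKM in replicate 1, against 141.1 and 134.4 in replicates 2 and 3. It had 224.9, 165.1 and 236.0 FPKM in WT. POX_3g04096 had 103.3, 133.1 and 229.5 FPKM in ΔPoxTMA7 and 287.5, 231.8 and 313.2 FPKM in WT. Its replicate 3 lay just under the lowest WT value, and it is the gene of the set closest to overlapping.

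**Figure D5:**
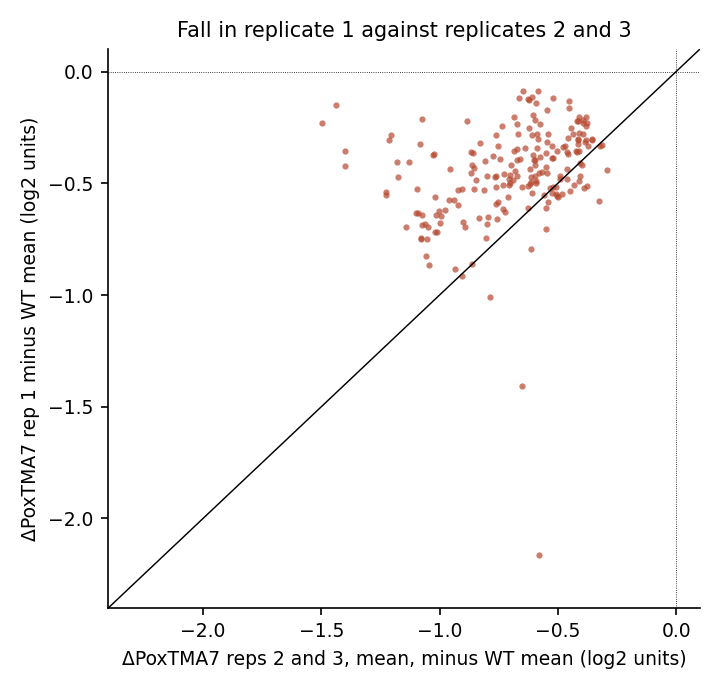
For each of the 201 genes, the log2(FPKM + 1) of ΔPoxTMA7 replicate 1 minus the WT mean (y axis) against the same difference for the mean of replicates 2 and 3 (x axis); the diagonal marks equal falls. Most points lie above the diagonal, where replicate 1 fell less, and POX_1g00282 is the lowest point.

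Without ΔPoxTMA7 replicate 1 the same conditions gave 212 genes, of which 162 were among the 201. Of the 39 genes that left, 35 did so because their ratio then lay at or under 0.5, so they moved to the class of deeper falls. The 50 genes that entered included 34 whose ratio with all 6 libraries was over 0.8 and 30 whose replicate 1 had overlapped with WT. Some genes are in both counts. With replicates 2 and 3 alone the median of the 201 genes was 64.2% of WT. Leaving out each library in turn gave 192 to 221 genes, and 123 of the 201 met the conditions every time.

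In a linear model fitted to all tested genes (limma on log2(FPKM + 1), Benjamini-Hochberg adjusted over the 6743 genes), 199 of the 201 passed an adjusted p of 0.05 as lower in ΔPoxTMA7, where 17.2% of all tested genes did. The contrast had been used to choose the genes, so nothing is read from this count. The 2 that did not pass, named for that after the fit, were POX_1g00282 and POX_4g05458. The median change of the 201 was -0.57 on the log2 scale, with a range of -1.11 to -0.32 and a median standard error of 0.11. The median over all tested genes was 0.11 and that over the other genes of the abundance range was 0.048. Relative to the typical gene the fall was thus somewhat deeper than the FPKM ratios show, and median-ratio scaling gave a median of -0.69.

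Genes just inside and just outside each limit were close in the quantity that the limit cuts, though not always in level. At the lower ratio limit POX_2g02170, inside at 50.0%, had a neighbour outside, POX_1g00799, with 187.6, 115.8 and 107.9 FPKM in ΔPoxTMA7 and 273.0, 245.6 and 304.8 FPKM in WT. At the upper limit POX_2g02178 was inside, with means of 92.6 FPKM in ΔPoxTMA7 and 115.7 FPKM in WT, and POX_2g03199 was outside, with 40.3 and 50.3 FPKM. Neither ratio limit fell in a gap of the distribution. At the lower abundance limit POX_4g06364 was inside with a mean of 41.2 FPKM over 6 libraries and POX_7g09351 outside with 40.7 FPKM. At the upper one POX_2g02573 was inside with 310.7 FPKM and POX_8g10435 outside with 316.9 FPKM. For the overlap condition the gene nearest to entering was POX_1g01749, whose highest mutant value was 116.0 FPKM and whose lowest WT value was 115.9 FPKM.

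The 201 genes were spread over the identifier groups 1 to 8, the number before the letter g, whose meaning the labels and files do not state. They made up 29.1% of the genes of this abundance in group 2 (48 of 165), 24.3% in group 1 (44 of 181) and 12.5% in group 8 (6 of 48), against 22.3% over all groups. The differences between groups were not tested. Lengths implied by the FPKM steps had a median of 3797 bp in the set and 3940 bp in the other genes of the range.

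Most of the genes stood alone among their neighbours by identifier, with 14 of the 201 in runs of consecutive identifiers, as 5 pairs and 1 run of 4. Runs were not counted for other genes, so nothing about the set is read from this number. The run of 4, named after its values were seen, was POX_2g02206 to POX_2g02209. POX_2g02206 had 68.6, 45.0 and 40.3 FPKM in ΔPoxTMA7 and 105.0, 105.5 and 93.2 FPKM in WT. POX_2g02207, the most abundant of them, had 177.1, 154.7 and 140.1 FPKM in ΔPoxTMA7 and 216.2, 209.8 and 218.8 FPKM in WT. In both, as in all 201 genes, each mutant library lay below every WT library, which the conditions fix. POX_2g02208 had 108.3, 96.5 and 91.3 FPKM in ΔPoxTMA7 and 153.7, 150.8 and 155.3 FPKM in WT. In POX_2g02209 the values were 102.8, 66.3 and 63.9 FPKM in ΔPoxTMA7 and 135.1, 143.7 and 121.7 FPKM in WT. All 4 had the order of replicates 1, 2 and 3 from high to low in the mutant, the commonest order of the set (93 of 201 genes, 46.3%), and they kept different parts of their WT means, 50.7%, 73.2%, 64.4% and 58.2%. The implied lengths, with a median of 3797 bp in the set, exceeded the median of 1330 bp of reference genes, and whether reads were counted for more than 1 neighbouring gene was not tested.

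Genes next to the set, which the conditions did not choose, had a median change near 0. Of the 271 tested genes whose identifier adjoins one of the 201, 58 were lower (21.4%) and 76 higher (28.0%) in ΔPoxTMA7 by limma at an adjusted p of 0.05, where 17.2% and 30.8% of all tested genes were. Of the 786 tested genes next to other genes of the abundance range, 14.9% were lower. Those 786 leave out every gene of that range, whereas the 271 leave out only the 201, so the sets are unlike. The median change was 0.050 on the log2 scale for the genes next to the set, against 0.17 for those 786 and 0.11 for all tested genes. These differences were not tested.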

How the data were processed

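Poly(A)-selected RNA from 6 libraries (3 ΔPoxTMA7, 3 WT, grouped by the genotype label) was analysed from the FPKM values the authors deposited, 1 table per library, per the file headers. The submitters' processing notes name bcl2fastq; the aligner, counter, genome build, annotation and strandedness were not given in the sources used here. Identifiers absent from a table were set to 0. The totals behind the FPKM values, recovered from the steps between low values, were 11665908 to 20808413 reads per library, and the recovered reads summed to 99.6% to 99.7% of them; intervals of counting error rest on these reads and cover counting only.

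The set's mean FPKM was at least 41 and under 316, and the mirror class had ratios of at least 1.25 and under 2. The gene set, its limits and the lists were chosen with earlier results of these data known. The fit used limma 3.58.1 in R 4.3.3 on log2(FPKM + 1) of the 6743 genes reaching 1 FPKM in 3 or more libraries. It was two-sided, with an abundance trend, Benjamini-Hochberg adjustment and a threshold of 0.05. The fit was first run on simulated data with equal spread in both groups and no library standing apart. The real data differ in both respects, so nothing is read from that run. The files hold FPKM, so no count model was used. Fold changes on this scale understate those of low genes. Other steps used Python 3.11.15, NumPy 2.4.6 and pandas 2.3.3. Named genes are the 4 with the lowest ratio, the 4 with the highest mean, the 4 with the widest gap between groups and the nearest inside and outside each limit; others are marked as chosen later. Lists by product could not be applied, since no identifier matched the reference table (assembly ASM172317v3). Alternatives were other scalings, pseudocounts, filters, limits, a replicate block, limma-voom on recovered reads and leaving out each library.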

Additional observations from a re-analysis of the deposited data

How the results depend on the processing

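Median-ratio scaling gave 251 genes by the same conditions, 171 of them among the 201, and quantile normalization gave 178, 166 of them shared. An upper ratio limit of 0.7 left 125 genes, by construction, and one of 0.9 gave 278. Against an FPKM sum without the 100 most abundant genes, the share held by the set differed by -5.49 percentage points between ΔPoxTMA7 and WT in place of -3.26, since the denominator is smaller. The median position of ΔPoxTMA7 replicate 1, 66.4% of the log2 fall of replicates 2 and 3, was 69.1% with median-ratio scaling. The limma calls among the 201 were 154 to 200 when 1 library was left out, lowest without WT replicate 3, and 180 to 201 under the other settings; their median log2 change lay between -0.69 and -0.51. With the deposited scaling the sign of the change is fixed by the choice of genes. Of 140 values of the 10 genes with the lowest ratios, highest means or widest gaps, 7 lost the threshold, all of POX_1g00229 or POX_2g02573. With the replicate block 198 of the 201 were called; the deviations of equally numbered libraries correlated at 0.022, 0.033 and 0.17, and they were not treated as paired.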
